A study of Cucumis sativus with 4 samples.

Results

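The cucumber (Cucumis sativus) homologues of ATG8, the small ubiquitin-like protein that coats autophagosomes, were followed in leaves and roots of plants grown on little or ample nitrogen. They were taken as the genes whose Arabidopsis homologue in the deposited expression table is one of the 9 genes ATG8a to ATG8i. Of these 9 Arabidopsis genes, 4 had a cucumber row and 5 (ATG8b, ATG8d, ATG8e, ATG8g and ATG8h) had none. ATG8c and ATG8f each had 2 rows, so the family held 6 of the 18665 genes in the table. The rule reads only the homologue ID. A copy is called here by the deposited symbol and its genomic scaffold: ATG8A on scaffold00542 (AT4G21980), ATG8C on scaffold00870 and on scaffold00765 (AT1G62040), ATG8F on scaffold00998 and on scaffold02951 (AT4G16520), and ATG8I on scaffold01024 (AT3G15580).

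All plants grew in sand and were sampled 28 days after sowing. Low nitrogen plants received a solution with 1 mM nitrate and control plants a complete solution with 5 mM nitrate. The salts that made up for the nitrate left the low nitrogen solution with 1.45 mM sulfate and 1.8 mM chloride, against 0.25 and 0.2 mM in the control solution. There were 4 libraries, 1 each from low nitrogen leaf, control leaf, low nitrogen root and control root, so no difference described here has a replicate check and none carries a p-value. The sources used here give neither the cultivar nor the number of plants behind a library.

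ATG8 is made as a precursor whose end is trimmed by the protease ATG4 to expose a glycine. The E1-like enzyme ATG7 and the E2-like enzyme ATG3, helped by the ATG12-ATG5-ATG16 complex, then attach ATG8 to a membrane lipid on the growing autophagosome, where it also docks cargo receptors. Part of the ATG8 is carried into the vacuole with the cargo and broken down. In Arabidopsis, ATG8h and ATG8i end at that glycine and need no trimming, which sets them apart from the other members. Autophagy moves nitrogen out of proteins and organelles, and Arabidopsis mutants that lack it yellow early when nitrogen is short. RNA levels do not measure autophagic activity.

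The libraries fitted their organ labels. The 6 genes homologous to leaf markers (small subunit of Rubisco, Rubisco activase and antenna proteins) added up to 21266 RPKM in low nitrogen leaf and 42828 RPKM in control leaf, against 10.04 RPKM in low nitrogen root and 16.7 RPKM in control root. RPKM scales reads to each kilobase of a gene and each M (mega) of reads. Of 10 genes homologous to root markers, 9 were lower in leaf than in root on each solution. The depth read back from the steps between the values was 2.74 M reads for low nitrogen leaf, 2.93 M for control leaf, 3.98 M for low nitrogen root and 4.23 M for control root.

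All 6 copies were expressed in all 4 libraries, and 2 of them supplied most of the family's RNA. The most abundant on average was ATG8C on scaffold00870, at 149 RPKM in low nitrogen leaf, 104 in control leaf, 542 in low nitrogen root and 379 in control root. In low nitrogen root 99.2% of all genes lay below it. ATG8I, the homologue of the Arabidopsis member without a tail after the glycine, was at 240.2 RPKM in low nitrogen leaf, 158 in control leaf, 279 in low nitrogen root and 133 in control root. Its control root level was the lowest of the 4 libraries. ATG8F on scaffold00998 was at 64.02 RPKM in low nitrogen leaf, 52.2 in control leaf, 81.5 in low nitrogen root and 99.5 in control root, the only copy with its highest value in control root.

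ATG8F on scaffold02951 was at 41.3 RPKM in low nitrogen leaf, 46.5 in control leaf, 69.8 in low nitrogen root and 61.4 in control root. It was the only copy with its lowest value in low nitrogen leaf. ATG8A was at 27.7 RPKM in low nitrogen leaf, 18.3 in control leaf, 45.9 in low nitrogen root and 45.2 in control root, so the root values lay close together and above the leaf values. ATG8C on scaffold00765 was the lowest copy in every library, at 25.5 RPKM in low nitrogen leaf, 14.8 in control leaf, 23.2 in low nitrogen root and 16.25 in control root. Its values as deposited paired by solution, with the low nitrogen libraries above both controls. With other library scalings this order can change, as can the highest or lowest library of other copies.

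**Figure D1:**
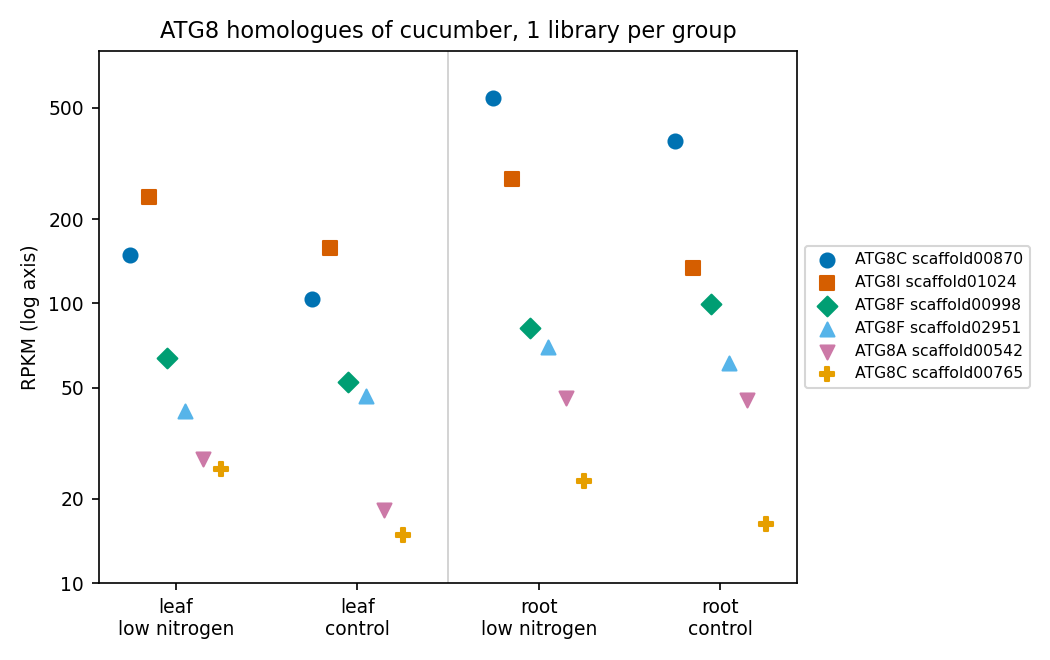
Level of each of the 6 ATG8 copies (RPKM, log axis) in the 4 libraries, 1 point per copy and library. ATG8C on scaffold00870 (circles) leads in root at 542 and 379 RPKM and ATG8I (squares) leads in leaf at 240.2 and 158 RPKM, while the other copies keep their order.

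The order of the copies by RPKM was the same on low nitrogen and control within an organ. In leaf it ran ATG8I, ATG8C on scaffold00870, ATG8F on scaffold00998, ATG8F on scaffold02951, ATG8A and ATG8C on scaffold00765. In root the first 2 places were exchanged and the rest followed as in leaf. The highest copy stood 9.41-fold above the lowest in low nitrogen leaf, 10.7-fold in control leaf, 23.4-fold in low nitrogen root and 23.3-fold in control root. Whole reads could be recovered for 5 copies, from 79 reads for ATG8C on scaffold00765 in control leaf up to 703 for ATG8I in low nitrogen root, but not for ATG8C on scaffold00870, which therefore has no counting interval. Of the 20 pairs of neighbours in these orders, 10 had 95% counting intervals that did not overlap, 4 had overlapping intervals and 6 could not be judged. The overlapping pairs were ATG8A and ATG8C on scaffold00765 in the 2 leaf libraries, and the ATG8F pair in control leaf and in low nitrogen root. Intervals cover counting error only, not differences between plants.

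The make-up of the ATG8 pool can be read within a library, and the shares do not depend on how libraries are scaled against each other. ATG8I made up 43.9% of the summed ATG8 RPKM in low nitrogen leaf and 40.1% in control leaf. In root it made up 26.8% on low nitrogen and 18.1% in control. The share of the ATG8F pair moved the other way, with 19.2% in low nitrogen leaf against 25.1% in control leaf. In root this share was 14.5% on low nitrogen against 21.9% in control. The summed level of the pair differed little, at 105 RPKM in low nitrogen leaf and 98.7 RPKM in control leaf. In low nitrogen and control root it was 151 and 161 RPKM. ATG8I was thus at 2.28 times the summed ATG8F level in low nitrogen leaf and 1.60 times in control leaf. In root that ratio of levels was 1.85 on low nitrogen and 0.83 in control.

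The share of ATG8C on scaffold00870 differed between organs and hardly between solutions. It held 27.2% of the pool in low nitrogen leaf and 26.4% in control leaf, against 52.0% in low nitrogen root and 51.6% in control root. ATG8A held between 4.41% in low nitrogen root and 6.14% in control root. The second ATG8C copy, on scaffold00765, held 4.66% in low nitrogen leaf, 3.76% in control leaf, 2.23% in low nitrogen root and 2.21% in control root. ATG8C on scaffold00870 was 5.82 times as high as its scaffold00765 counterpart in low nitrogen leaf, 7.02 times in control leaf and 23.4 and 23.3 times in low nitrogen and control root. The length behind each RPKM is not certain. An error in it would shift a copy's RPKM by the same factor in all 4 libraries, but the shares by factors that differ between libraries. Reads that match more than 1 copy may also have been counted for either, since the sources used here do not say how such reads were treated.

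**Figure D2:**
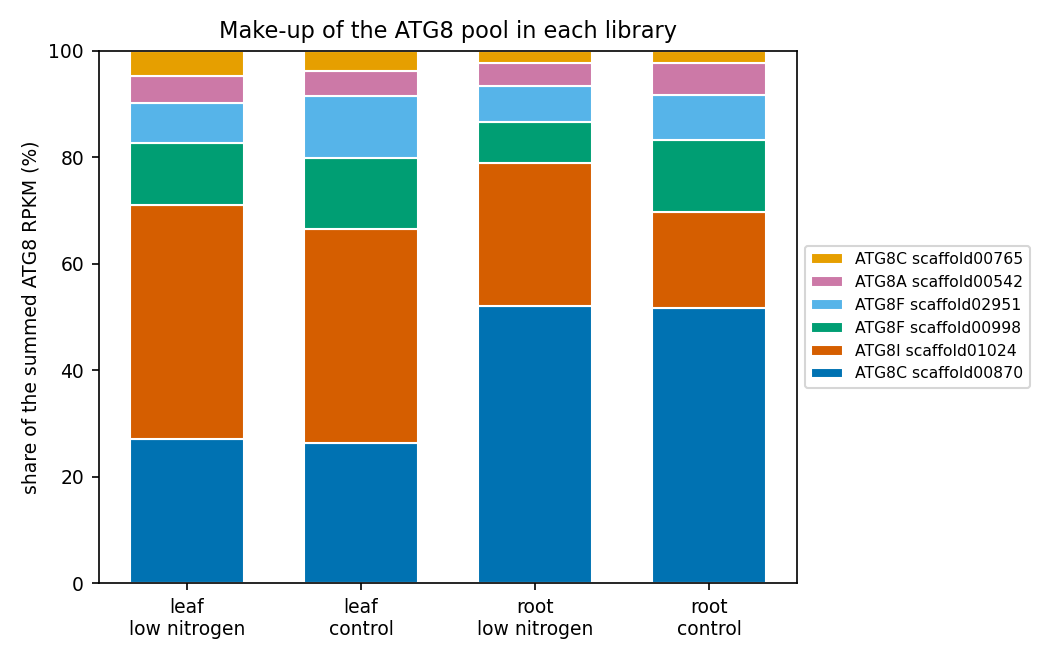
Share of each copy in the summed ATG8 RPKM (%, axis from 0 to 100) in each library. ATG8C on scaffold00870 takes 52.0% and 51.6% in root against 27.2% and 26.4% in leaf, and ATG8I takes 26.8% in low nitrogen root against 18.1% in control root.

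In root the question was how the ATG8 genes differed between plants on little nitrogen and control plants. The summed family stood at 1042 RPKM in low nitrogen root and 735 RPKM in control root, a ratio of 1.42. The 10 root marker genes, none at 0 in a root library, added up to 802 RPKM in low nitrogen root and 2045 RPKM in control root. Much of this sum came from the homologue of AT4G17340, at 529 and 1266 RPKM. Not all markers shared the direction: SHR on scaffold00927 was at 12.5 RPKM in low nitrogen root and 11.6 RPKM in control root. The part of the shift of the marker sum in the ATG8 ratios was not tested. ATG8I accounted for the one difference past a log2 ratio of 1. It was at 279 RPKM in low nitrogen root and 133 RPKM in control root, a ratio of 2.09 whose counting interval ran from 1.84 to 2.39. Its log2 ratio of 1.06, computed like all log2 ratios here on RPKM plus 1, lay just past the threshold, and 5.37% of the 14532 genes compared had a higher one. The count for the family was 1 of 6 copies higher and 0 lower, where 6.17% of all genes compared were higher and 4.34% lower. Relative to the median of all genes these shares were 5.68% and 4.7%, and ATG8I still passed. With 6 copies, 1 call is not far from that background.

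The ATG8C copies had near-equal ratios in root. ATG8C on scaffold00870 was 1.43-fold higher, at 542 against 379 RPKM, and 19.7% of genes had a higher log2 ratio. ATG8C on scaffold00765 was also 1.43-fold higher, at 23.2 against 16.25 RPKM, with a counting interval of 1.13 to 1.82. The ATG8F copies lay on opposite sides of 1 in root. The one on scaffold00998 had a ratio of 0.82 with a counting interval of 0.73 to 0.92, and the one on scaffold02951 a ratio of 1.14 with an interval of 0.99 to 1.31 that included 1. ATG8A had a ratio of 1.02 (interval 0.87 to 1.19). The median log2 ratio of the 6 copies was 0.34, against 0.04 for all genes compared. In whole organs, a difference in RNA per cell and a difference in the number of cells of a type cannot be told apart.

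In leaf the same question was asked of low nitrogen and control leaves. The summed family stood at 547 RPKM in low nitrogen leaf and 394 RPKM in control leaf, a ratio of 1.39. None of the 6 copies reached a log2 ratio of 1 in either direction, where 13.6% of the 13384 genes compared were higher and 3.59% lower. All genes together had a median log2 ratio of 0.33 in leaf, so that the family's median of 0.54 lay 0.21 above it. Relative to that median, 5.91% of genes were higher and 7.51% lower by a log2 ratio of 1, and again 0 of 6 copies. The leaf marker sum given above, 21266 RPKM in low nitrogen leaf and 42828 RPKM in control leaf, differed along with this shift; its part in the leaf ratios was not tested.

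The highest leaf ratio belonged to ATG8C on scaffold00765, at 25.5 RPKM in low nitrogen leaf and 14.8 in control leaf, 1.72-fold with a counting interval of 1.29 to 2.31. Its log2 ratio was 0.75 as deposited and 0.42 relative to the median of all genes. ATG8I followed at 240.2 against 158 RPKM, 1.52-fold (interval 1.31 to 1.77), and ATG8A at 27.7 against 18.3 RPKM, 1.51-fold (interval 1.15 to 2.00). Relative to the median their log2 ratios were 0.27 and 0.24. ATG8C on scaffold00870 was at 149 against 104 RPKM, 1.43-fold, with a log2 ratio of 0.18 relative to the median. For ATG8F the copy on scaffold00998 had a ratio of 1.23 (interval 1.02 to 1.47), but its log2 ratio was -0.04 relative to the median. ATG8F on scaffold02951 had a ratio of 0.89 with an interval of 0.72 to 1.09 and a log2 ratio of -0.50 relative to the median. It was the only copy that was lower in low nitrogen leaf in the values as deposited.

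**Figure D3:**
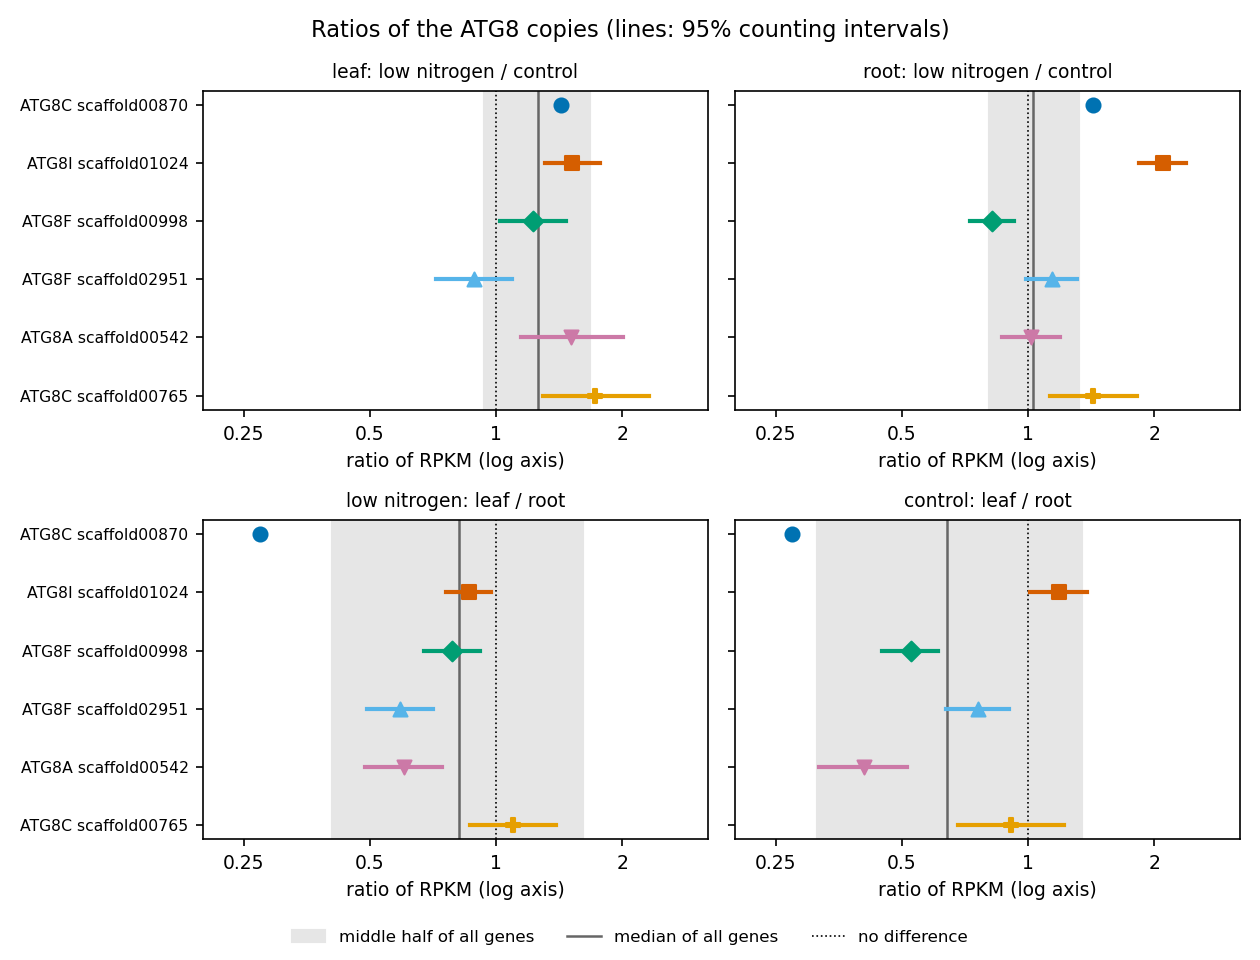
Ratio of RPKM (log axis) of each ATG8 copy for low nitrogen over control in leaf and in root (upper panels) and for leaf over root on each solution (lower panels), with 95% counting intervals as lines where reads could be recovered, the median of all genes as a grey line and their middle quartiles as a band. ATG8I in root, at 2.09, is the only copy beyond a ratio of 2 in the upper panels.

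The leaf and root ratios use separate libraries. For each copy the leaf log2 ratio minus the root one was set beside the same difference over the 14975 genes that averaged 1 RPKM or more over all libraries, whose median was 0.27 and whose middle quartiles ran from -0.25 to 0.77. ATG8I had the lowest value of the family at -0.46, below the middle quartiles, with a log2 ratio of 0.60 in leaf and 1.06 in root. ATG8F on scaffold02951 followed at -0.35, also below them. ATG8C on scaffold00870 had 0.00, ATG8C on scaffold00765 0.26, ATG8A 0.55 and ATG8F on scaffold00998 0.57, all within the middle quartiles. Of all genes, 17.7% had a lower value than ATG8I. These differences were not tested, since no group has a second library.

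Leaf and root were then compared on each solution, with the same 4 libraries as above, so these ratios are not independent of the nitrogen ratios. The summed family was lower in leaf, at 547 RPKM in low nitrogen leaf against 1042 RPKM in low nitrogen root, and at 394 RPKM in control leaf against 735 RPKM in control root. The ratios of leaf to root were 0.53 on low nitrogen and 0.54 in control. Relative to the medians of all genes the log2 ratios of the sum were -0.63 on low nitrogen and -0.25 in control, against -0.93 and -0.90 as deposited. Without ATG8C on scaffold00870 the log2 ratio of the sum was -0.33 on low nitrogen and -0.30 in control. That copy was 3.65-fold lower in leaf than in root on each solution, at 149 against 542 RPKM on low nitrogen and 104 against 379 RPKM in control. ATG8A was 1.66-fold lower in low nitrogen leaf than in low nitrogen root (interval 1.34 to 2.06) and 2.47-fold lower in control leaf than in control root (1.95 to 3.15).

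Counted by the threshold, 0 of 6 copies were higher and 1 was lower in low nitrogen leaf than in low nitrogen root, where 20% of the 15057 genes compared were higher and 31.2% lower. In control leaf against control root 0 were higher and 2 lower, against 17.6% and 40.4% of 14711 genes. All genes together had a median log2 ratio of -0.30 on low nitrogen and -0.65 in control. Relative to these medians the split of all genes was 24.7% higher and 25.2% lower on low nitrogen, and 26.5% and 25.5% in control, and ATG8A no longer passed while ATG8C on scaffold00870 still did.

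The ATG8F copies were also lower in leaf in the values as deposited. On scaffold00998 the leaf to root ratio was 0.79 on low nitrogen (interval 0.67 to 0.91) and 0.52 in control (0.45 to 0.61). On scaffold02951 it was 0.59 on low nitrogen (0.49 to 0.71) and 0.76 in control (0.64 to 0.90), but relative to the median of all genes its control log2 ratio was 0.25. ATG8I was at 240.2 RPKM in low nitrogen leaf against 279 in low nitrogen root, a ratio of 0.86, and at 158 in control leaf against 133 in control root, a ratio of 1.18. The intervals of 0.76 to 0.97 and 1.01 to 1.38 lay on opposite sides of 1, though relative to the medians of all genes both log2 ratios were positive, at 0.08 and 0.89. ATG8C on scaffold00765 had leaf to root ratios of 1.10 and 0.91 on low nitrogen and in control, with intervals that included 1. Relative to the medians of all genes its log2 ratios were 0.43 and 0.52, so its direction in control depends on the scaling.

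The other genes of the autophagy pathway were taken from lists of Arabidopsis genes, 62 in all, of which 43 had cucumber rows, 50 genes together. In root, 44 of these could be compared: 1 was higher and 0 were lower, where 6.17% of all genes were higher and 4.34% lower. Their median log2 ratio was -0.04, against 0.04 for all genes and 0.34 for ATG8. In leaf, 42 could be compared: 8 were higher and 0 lower, where 13.6% of all genes were higher and 3.59% lower. Their median was 0.43, against 0.33 for all genes. Relative to the median of all genes 0 of them passed the threshold in either organ, so each call in the lists that follow is lost under that scaling.

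The genes for trimming and conjugating ATG8 and for conjugating ATG12 had a median log2 ratio of -0.13 in root and 0.43 in leaf over 7 genes compared. ATG3, the E2-like enzyme, was at 36.4 RPKM in low nitrogen leaf and 22.7 in control leaf, and at 65.2 RPKM in low nitrogen root and 66.4 in control root. A homologue of ATG4a (AT2G44140), the trimming protease, was at 21.8 and 15.9 RPKM in low nitrogen and control leaf, and at 17.9 and 25.8 RPKM in low nitrogen and control root, a root ratio of 0.69 with an interval of 0.55 to 0.87. Of this list 1 of 7 genes was higher in leaf and 0 in root (all genes 13.6% and 6.17%). The gene was the ATG16 homologue (AT5G50230), at 22.4 RPKM in low nitrogen leaf and 10.4 in control leaf, 2.14-fold (interval 1.56 to 2.98). In low nitrogen and control root ATG16 was at 23.2 and 25.5 RPKM.

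ATG7, the E1-like enzyme, was low throughout, at 4.43 RPKM in low nitrogen leaf, 3.25 in control leaf, 1.08 in low nitrogen root and 1.41 in control root. Its level was thus higher in leaf on each solution, whereas the ATG8 sum was higher in root. ATG12A, the second ubiquitin-like protein of the pathway, was at 75.1 and 74.4 RPKM in low nitrogen and control leaf and at 61.7 and 50.9 RPKM in low nitrogen and control root. ATG10, which conjugates ATG12, was at 7.49 and 5.24 RPKM in low nitrogen and control leaf and 11.9 and 9.02 RPKM in low nitrogen and control root. Of the 2 ATG5 rows on scaffold00931, the higher was at 8.54 and 6.26 RPKM in low nitrogen and control leaf and 7.98 and 9.48 RPKM in low nitrogen and control root. The lower ATG5 row had at most 1 read in any library and entered no comparison.

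Upstream of ATG8, the ATG1 kinase complex starts autophagosome formation, and 0 of its 4 compared genes passed the threshold in either organ. Over all genes 13.6% were higher and 3.59% lower in leaf, and 6.17% and 4.34% in root. Homologues of ATG1c (AT2G37840) and ATG101 (AT5G66930) were at 23.1 against 17.5 RPKM and 39.8 against 28.5 RPKM in low nitrogen and control root, ratios of 1.32 (interval 1.08 to 1.60) and 1.40 (1.26 to 1.55). The complex that makes phosphatidylinositol 3-phosphate had 1 of 5 genes higher in leaf (all genes 13.6%), a homologue of ATG14b (AT4G08540) at 11.9 RPKM in low nitrogen leaf and 4.17 in control leaf, and 0 in root. BECLIN1, the ATG6 homologue, was at 9.99 and 7.77 RPKM in low nitrogen and control leaf. The VPS38 homologue (AT2G32760) of that complex was at 4.78 and 6.24 RPKM in low nitrogen and control leaf and at 11.2 and 16.4 RPKM in low nitrogen and control root. Of the genes for membrane delivery, AtATG18a was at 24.1 against 20.4 RPKM in low nitrogen and control root. The ATG18f homologue G18F was at 9.09 against 4.48 RPKM in low nitrogen and control leaf. Of this list 0 of 5 genes compared in leaf and 0 of 6 in root passed the threshold, beside the same shares of all genes.

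Among proteins that bind ATG8 or act with it on membranes, 2 of 10 were higher in leaf and 0 in root (all genes 13.6% and 6.17%), with a root median of -0.23. These were RPN10 on scaffold03080, a proteasome subunit that in Arabidopsis also acts as a receptor for the autophagy of proteasomes, at 62.25 RPKM in low nitrogen leaf and 27.9 in control leaf, and the SH3P2 homologue (AT4G34660), a membrane-bending protein, at 35.9 and 15.15 RPKM. RPN10 on scaffold00542 was at 5.61 and 7.30 RPKM in low nitrogen and control leaf and at 5.93 and 9.29 RPKM in low nitrogen and control root. The CFS1 homologue (AT3G43230) was at 6.00 RPKM in low nitrogen root and 11.4 RPKM in control root. The NBR1 homologue (AT4G24690), a receptor for protein aggregates named here after its values were seen, was at 9.19 and 11.1 RPKM in low nitrogen and control leaf and at 36.4 and 44.2 RPKM in low nitrogen and control root. Its root ratio of 0.82 had an interval of 0.72 to 0.93.

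The next list held nutrient-sensing kinases that govern autophagy and proteins that act with them. Of its genes, 2 of 6 were higher in leaf and 0 in root (all genes 13.6% and 6.17%). TOR on scaffold01658, whose Arabidopsis counterpart represses autophagy, was at 6.93 RPKM in low nitrogen leaf and 2.64 in control leaf, and at 9.51 RPKM in low nitrogen root and 4.88 in control root. Its partner RAPTOR1B was at 20.8 and 8.28 RPKM in low nitrogen and control leaf, and at 27.8 and 23.9 RPKM in low nitrogen and control root. TAP46, a phosphatase subunit of the TOR pathway, was at 75.9 RPKM in low nitrogen root and 37.5 in control root, just short of the threshold. SNRK1.1, the energy-sensing kinase that promotes autophagy in Arabidopsis, was at 31.9 and 15.8 RPKM in low nitrogen and control leaf, and at 23.85 and 30.5 RPKM in low nitrogen and control root.

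Vacuolar proteases had 2 of 5 genes higher in leaf and 1 of 6 higher in root (all genes 13.6% and 6.17%). The root gene was GAMMAVPE, a vacuolar processing enzyme, at 214 RPKM in low nitrogen root and 105 in control root, 2.03-fold (interval 1.92 to 2.16). Its log2 ratio of 1.02 became 0.98 relative to the median of all genes, and with median ratio or upper quartile scaling no gene of these lists passed in root. RD19A on scaffold01144 was at 1003 and 498 RPKM in low nitrogen and control leaf, and RD19A on scaffold00934 at 187 and 92.3 RPKM in leaf but at 917 RPKM in low nitrogen root and 1522 RPKM in control root. RD21A on scaffold03533 was at 199 and 195 RPKM in low nitrogen and control leaf and at 89.6 and 136 RPKM in low nitrogen and control root.

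**Figure D4:**
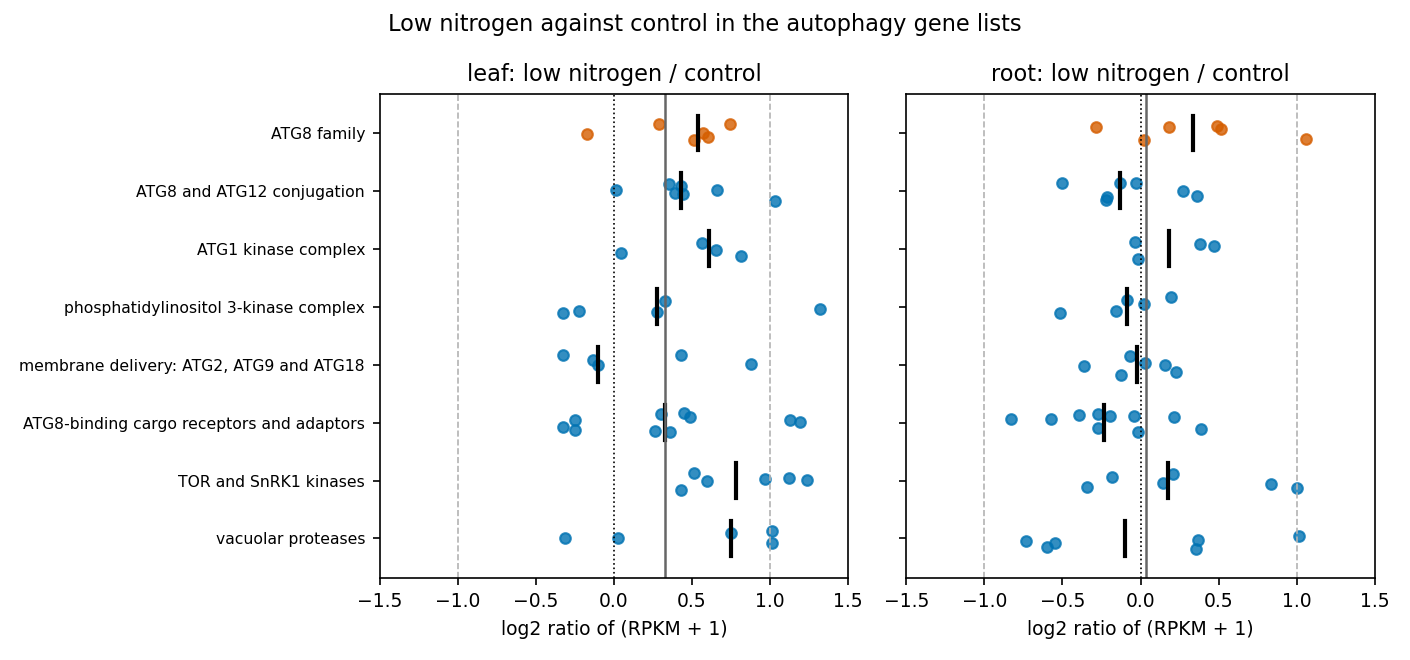
Log2 ratio of RPKM plus 1 for low nitrogen over control, 1 point per gene compared, for the ATG8 family (top) and the other autophagy lists, with list medians as black bars, the median of all genes as a grey line and the threshold as dashed lines. In leaf the medians scatter around that of all genes at 0.33; in root ATG8 has the highest list median, 0.34, and ATG8I and GAMMAVPE alone pass the threshold (GAMMAVPE not relative to the median of all genes).

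The genes with the pattern most like the summed ATG8 family over the 4 libraries were looked for among 4553 genes that had a symbol and averaged 5 RPKM or more. Likeness was the Euclidean distance between log2 values centred per gene. The 5 nearest were PTR1 (AT3G54140), TAP2 (AT5G39040), TRX1 (AT3G51030), GCN3 (AT1G64550) and UPF3 (AT1G33980), at distances of 0.07 to 0.11. PTR1 was at 10.02 RPKM in low nitrogen leaf, 6.97 in control leaf, 21.1 in low nitrogen root and 13.6 in control root. For ATG8C on scaffold00870 alone, the nearest were FC1 (AT5G26030), HKL1 (AT1G50460), GGT4 (AT4G29210), ACR8 (AT1G12420) and SHS1 (AT4G32400), at distances of 0.10 to 0.14. FC1 was at 38.0 RPKM in low nitrogen leaf, 24.9 in control leaf, 147 in low nitrogen root and 97.1 in control root. The match rests on 4 libraries and is a description.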

How the data were processed

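RNA was sequenced from 4 libraries, 1 per group. The authors deposited RPKM values with 2 decimals for 18665 genes. The submitters' processing notes list Bowtie 0.12.9; the genome build, the counter and the gene length behind the values are not named in the sources used here. Multiplied by the deposited lengths, the RPKM add up to 5.42 to 8.44 M reads, more than the depths, so most values were divided by a shorter length. The deposited gene IDs matched 0 of 23999 RefSeq genes; symbols and homologues are the deposited ones, and neither coordinates nor sequences are printed.

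Depths were taken as those at which RPKM times length gave whole reads, and the reads of a gene as the smallest whole numbers allowed in all 4 libraries by a length from 100 bases up to the deposited one, within 0.00501 RPKM. Such reads existed for 81.6% of genes; they are not certain for a single gene and serve only for exact 95% intervals (conditional Clopper-Pearson for ratios, Poisson for levels), which cover counting error only. Ratios are of RPKM, and log2 ratios of RPKM plus a pseudocount of 1, which understates the differences of low genes. Genes that averaged 1 RPKM or more in the libraries compared were kept, and called at a log2 ratio of 1 or more in size (fold of 2). In Python 3.11.15 with SciPy 1.17.1 the procedure was tested on simulated data. Alternatives were other pseudocounts, filters, folds and scalings. All copies and conjugation genes were named, and of each other list up to 4 genes that averaged 5 RPKM or more and had the largest nitrogen log2 ratio. Members and lists were chosen with earlier results of these data known.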

Additional observations from a re-analysis of the deposited data

Results flagged for a closer look

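The ATG8F copies differed from control in opposite directions in leaf and root, which with 1 library per group flags them without a test. ATG8F on scaffold00998 had a log2 ratio of 0.29 in leaf and -0.28 in root, a difference of 0.57, and its counting intervals excluded a ratio of 1 in each organ. Relative to the median of all genes its leaf log2 ratio was -0.04, so the opposite directions depend on the scaling. ATG8F on scaffold02951 had a log2 ratio of -0.17 in leaf and 0.18 in root, a difference of -0.35, and its counting intervals included a ratio of 1 in each organ. Whether either difference exceeds the variation between plants was not tested.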

How the results depend on the processing

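No paired analysis was possible because each group has 1 library; for the same reason no library could be left out. Of 236 log2 ratios of single copies under the alternatives, 219 kept their sign, and none past the threshold reversed. The call of ATG8I in low nitrogen root held in all alternatives run, with log2 ratios of 1.00 to 1.10, so the upper quartile scaling left it on the threshold. Library scaling moved the leaf values. The log2 ratio of the family sum in low nitrogen leaf, 0.47, became 0.035 with median ratio scaling, 0.12 with upper quartile scaling and 0.14 relative to the median of all genes (an alternative added after the data were seen). The leaf minus root difference, -0.03, became -0.42, -0.33 and -0.32. Control leaf against control root, -0.90, became -0.25, -0.37 and -0.25, and low nitrogen leaf against low nitrogen root, -0.93, became -0.67, -0.70 and -0.63. Without ATG8C on scaffold00870 (added later) the leaf to root values were -0.33 on low nitrogen and -0.30 in control, and without ATG8I -1.31 and -1.35. In control leaf against control root 2 of 6 copies passed as reported, where 8539 of 14711 genes did. This became 1 with median ratio scaling (7814 of 14812 genes), upper quartile scaling (7841 of 14794) and relative to the median (7653 of 14711). Recovered reads, which lack ATG8C on scaffold00870, gave 1 of 5 (7048 of 11927 genes). Equal sums gave 3 of 6 (8919 of 14706 genes), and a fold of 1.5 also gave 3 (10890 of 14711). On recovered reads 0 of 5 copies passed in low nitrogen leaf against low nitrogen root, where 6291 of 12174 genes did. The 1 copy past the threshold there, ATG8C on scaffold00870, has no recovered reads, so this setting could not test it. At a fold of 1.5, 2 of 6 copies passed in low nitrogen against control leaf, where 5738 of 13384 genes did. In low nitrogen leaf against low nitrogen root 3 of 6 passed at that fold, where 10297 of 15057 genes did. Of the other autophagy genes 8 of 42 passed in leaf, all higher (counts over all genes follow in brackets). They came to 3 with a pseudocount of 5 (803 of 13384 genes) and 11 with one of 0.1 (3285 of 13384). With median ratio scaling they were 0 (2072 of 13688 genes) and with upper quartile scaling 1 (1998 of 13641). Relative to the median they were 0 (1796 of 13384 genes). Equal sums gave 9 (2385 of 13250 genes) and scaling without the 20 highest genes gave 5 (2155 of 13467). On recovered reads 5 of 36 passed (2113 of 11110 genes), and 15 of 42 did at a fold of 1.5 (5738 of 13384). In root 1 of 44 passed, and it was higher. This count became 2 with a pseudocount of 0.1 (2205 of 14532 genes) and with equal sums (1571 of 14624). It was also 2 with the sum without the 20 highest genes (1488 of 14429). It became 0 with a pseudocount of 5 (643 of 14532 genes) and relative to the median (1508 of 14532). With median ratio scaling (1391 of 14188 genes) and upper quartile scaling (1409 of 14244) it was 0 as well. At a fold of 1.5 it was 6, 3 higher and 3 lower, where 4269 of 14532 genes passed. Over all genes, 1528 of 14532 passed in root and 2297 of 13384 in leaf. With a pseudocount of 5 these became 643 and 803, and at a fold of 1.5 they became 4269 and 5738. Among genes averaging 5 RPKM or more they were 1012 of 10331 and 1399 of 9051. Of the leaf genes past the threshold 79.1% were higher, against 39.9% with median ratio and 47.8% with upper quartile scaling. The causes of these shifts were not tested.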
